A study of Mus musculus with 11 samples.

Results

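SC4, a partially reprogrammed mouse cell line, was set against the mouse embryonic fibroblasts (MEF) with which reprogramming in this study starts. The pair was chosen by the sample labels and makes up 2 of the 11 samples, each measured on 1 whole-transcript array. SC4 cells were at passage 10 in fibroblast medium with 15% cosmic calf serum, and MEF were uninfected Rosa-rtTA +/- cells, which carry a doxycycline-controlled activator, at passage 4 in 10% serum. Line, passage and serum thus differ together and cannot be told apart. The origin of SC4, and whether it is 1 clone, was not given in the labels. Of the other arrays, 8 hold reprogramming cells at days 6 and 9: Rosa-rtTA +/- MEF infected with 4 tetO constructs (Oct4, Sox2, Klf4 and Myc) and given doxycycline, sorted as CD49d+, CD73+ or CD73- or left unsorted. The remaining array holds embryonic stem cells (ESC) at passage 11, grown with LIF in 12% knockout serum and 3% cosmic calf serum. With 1 array a group, no difference between SC4 and MEF has a replicate check or a test, and genes were counted at fixed folds.

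Fibroblasts are mesenchymal cells that secrete and remodel a collagen-rich matrix and pull on it with actin fibres. During reprogramming these functions are shut down, epithelial contacts form, the cell cycle speeds up, and the stem cell network around Nanog, Oct4 and Sox2 comes on last. Partially reprogrammed lines are cultures that have left the fibroblast state and divide stably without that network.

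Values are linear intensities with a floor of 100, and a gene at the floor has only an upper bound there. Of 22180 named genes, 13242 lay above the floor in SC4 or MEF and 8938 in neither. Among the 13242 genes 1567 (11.8%) were at least 2-fold higher in SC4 and 1641 (12.4%) at least 2-fold lower, together 24.2%. These are 7.06% and 7.4% of all named genes, together 14.5%. Counts of gene lists below are to be read beside these shares. Percentages of a list are of its measured genes. They go beside the shares of all named genes, or of genes above the floor where no list member was at it in both samples. At 8-fold, 104 genes (0.785%, or 0.469% of all named genes) were higher in SC4 and 290 (2.19%, or 1.31%) lower. The median log2 difference, SC4 minus MEF, was 0.02 over the 13242 genes. Bend3 (652 in SC4 and 326 in MEF) and Rab33b (260.2 and 520.4) lay just inside the 2-fold line, and Bag4 (764 and 382) and Sidt2 (1263 and 2525) just outside it.

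Other pairs of single arrays were counted likewise. The share of genes at least 2-fold apart was 25.2% between ESC and MEF, close to the 24.2% between SC4 and MEF, and 1832 of 13130 genes were that far apart between SC4 and ESC. Unsorted cells at day 9 and day 6 had a share of 0.657%. It was 1.28% between CD49d+ and CD73+ cells at day 9 and 1.22% at day 6. Between SC4 and each of the 8 reprogramming arrays it ran from 5.94% (CD49d+ cells at day 9) to 9.27% (CD73- cells at day 9). The arrays were alike in range, with 52.14% to 54.31% of probe sets at the floor and a median above it of 347.0 to 388.3.

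**Figure D1:**
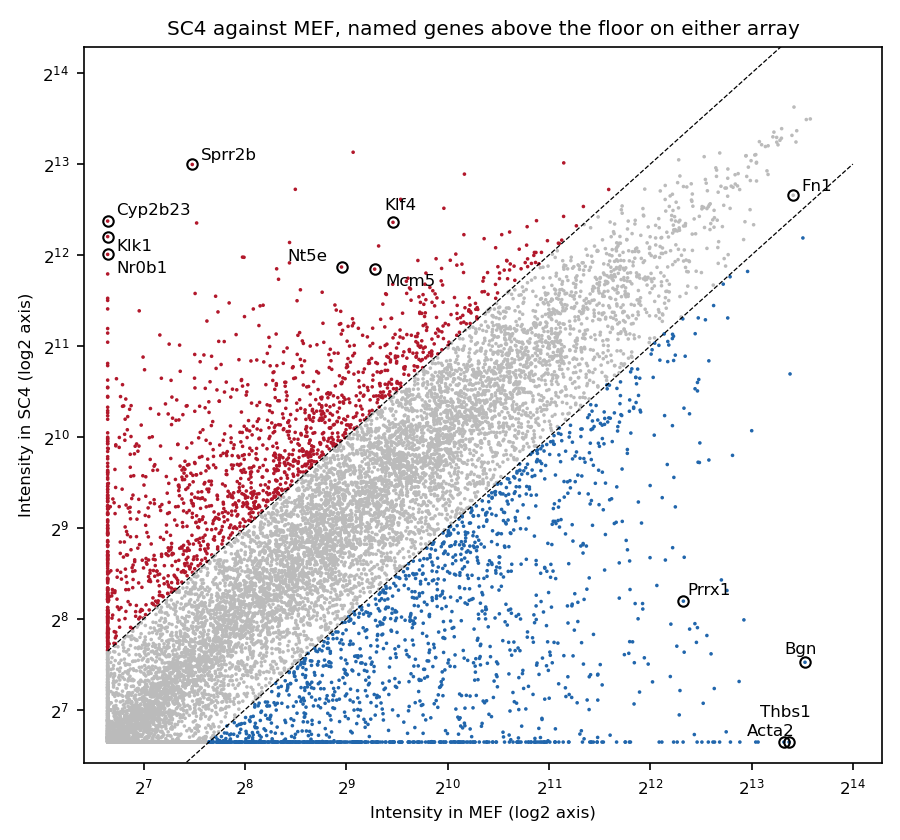
Intensity of each named gene above the floor on either array, in SC4 (vertical, log2 axis) against MEF (horizontal, log2 axis), with dashed lines at 2-fold. Red points are the 1567 genes at least 2-fold higher in SC4 and blue points the 1641 at least 2-fold lower. Thbs1 and Acta2 lie at the floor of SC4 and among the brightest genes of MEF, and Cyp2b23, Klk1 and Nr0b1 lie at the floor of MEF.

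The labels were checked against defining markers. Of 14 fibroblast markers 7 were at the floor in SC4 (Thy1, Pdgfra, Pdgfrb, Twist2, Dcn, Lum and Postn) and 0 in MEF. In ESC 2 were at the floor. Their summed intensity was 18078 in SC4, 17723 in ESC and 74272 in MEF. Most of the SC4 sum came from the filament protein vimentin (Vim, 9694 in SC4 and 11101 in MEF) and from fibronectin (Fn1, 6459 and 10894). Of 8 stem cell markers 6 were at the floor in SC4, 0 in ESC and 7 in MEF, with sums of 860.6, 25744 and 849.1 in that order. Nanog, a core factor of the network, had 5019 in ESC and was at the floor in SC4 and MEF, as was Sox2 (3829 in ESC). The SC4 array thus had vimentin and fibronectin within 2-fold of MEF and had 7 fibroblast and 6 stem cell markers at the floor. Vimentin and fibronectin were within 2-fold of MEF in ESC too (7654 and 6379), so their levels do not set SC4 apart from ESC. In such bulk samples fewer cells of a type and less RNA per cell cannot be told apart. The ESC array carried fibroblast-type transcripts too (Acta2 at 6236, Thbs1 at 3743 and Bgn at 3380.2), and its levels of such genes are given as measured.

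Sex-linked genes, looked at after the values were seen, differed between the samples. Xist, the RNA that coats the inactive X chromosome, was at the floor in SC4, had 3371 to 5529.9 on the 8 reprogramming arrays and 129.8 in ESC, and had 3549.7 in MEF. The Y-linked Uty and Eif2s3y had 672 and 625 in SC4 and 439 and 849 in ESC, and both were at the floor on the 8 reprogramming arrays and in MEF. Y-linked transcripts were thus measured in SC4 and not above the floor in MEF. The part of sex in the differences below was not tested.

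Among the genes highest in SC4 were enzymes of very different function. Cyp2b23, a cytochrome P450 oxidase, led with 5306 in SC4 against the floor in MEF (at least 53.1-fold, log2 5.73). It was at the floor on 6 of 8 reprogramming arrays, reached 176 there, and had 714 in ESC. Klk1, a secreted serine protease of the kallikrein family, had 4714 in SC4 against the floor in MEF (at least 47.1-fold). On the reprogramming arrays Klk1 had a median of 409.8 and reached 2490.3, and it was at the floor in ESC. Enpp3, a surface enzyme that cleaves nucleotides, had 8967 in SC4 against 536 in MEF (16.7-fold), above its highest reprogramming value of 2419.6 and its ESC value of 3045. Aspa, which breaks down N-acetylaspartate, had 1793 in SC4 and was at the floor on each of the other 10 arrays.

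Nuclear receptors and growth signals formed another group. Nr0b1, an orphan receptor that belongs to the network of stem cells, had 4116 in SC4 against the floor in MEF (at least 41.2-fold), with 406 to 5284 on the reprogramming arrays and 1815 in ESC. Nr5a2, a receptor active in the early embryo, had 2108 in SC4 against the floor in MEF (at least 21.1-fold) and was at the floor on 5 of 8 reprogramming arrays. The G protein subunit Gna14 had 3546 in SC4 against the floor in MEF (at least 35.5-fold), and at most 2367 elsewhere. The growth factor Fgf4 had 1763 in SC4, 3628 in ESC and the floor in MEF. The carrier of secreted FGFs, Fgfbp1, had 1578 in SC4 and was at the floor in ESC and MEF. The order of SC4 and ESC thus differed between these genes.

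Membrane and secreted proteins made up most of the rest. The desmosome protein Perp had 2898 in SC4 against the floor in MEF (at least 29.0-fold), with 1563 to 3734 on the reprogramming arrays. The chloride channel Ano1 had 2716 against the floor, and the sialomucin podocalyxin (Podxl) 2338 against the floor. For Perp, Ano1, Podxl and Nr0b1 at least 1 reprogramming array lay above SC4. For Slc35f2, a solute carrier with 2946 in SC4 against the floor in MEF, none did, the highest being 1484. The cornified envelope gene Sprr2b had 8169 in SC4 against 178 in MEF (45.8-fold) and at most 396 on any other array. Its family holds near-identical genes, and whether the probe set detects others was not tested.

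The cystine transporter Slc7a11 had 4031 in SC4 against 252 in MEF (16.0-fold, log2 4.00, and 2.67 as the mean of its probe sets), at most 642 on the reprogramming arrays and the floor in ESC. Slc7a3, which carries cationic amino acids, had 3055 against 182 and reached 3376 during reprogramming. Pcsk1, a protease that cuts prohormones, had 2259 in SC4 against the floor in MEF and at most 190.4 during reprogramming. The other members were the protease inhibitor Fetub (5229 in SC4 and 184 in MEF), the neuronal tubulin-binding Stmn2 (6759 and 361) and the granule proteoglycan Srgn (4025 and 254). Slc7a11, Pcsk1, Fetub and Slc35f2 were highest in SC4 of all 11 arrays. So were Cyp2b23, Klk1, Sprr2b, Gna14, Nr5a2, Enpp3, Aspa, Srgn and Fgfbp1. Nr0b1, Perp, Ano1, Podxl, Stmn2, Fgf4 and Slc7a3 were not. Naming genes for being high in SC4 favours such a rank.

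**Figure D2:**
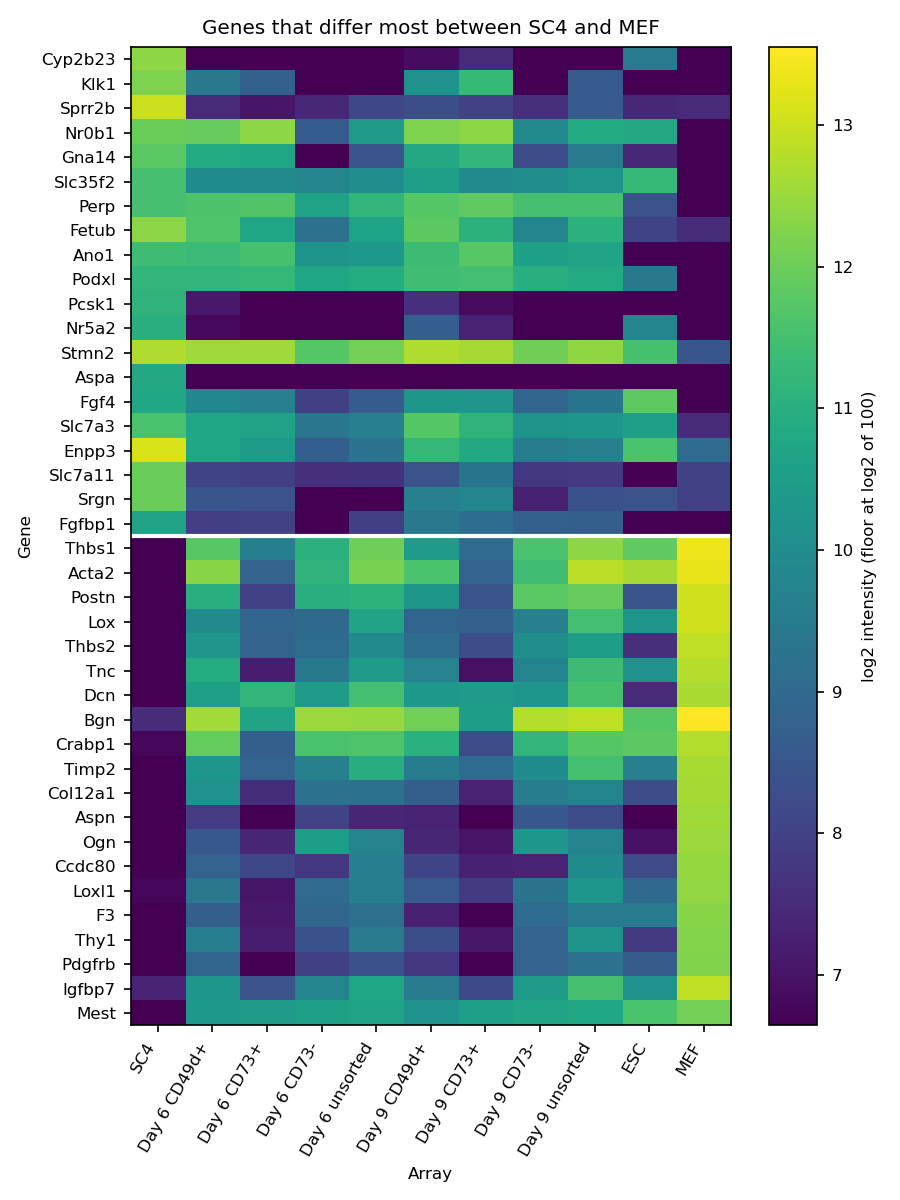
Log2 intensity (colour) on all 11 arrays of the 20 genes highest and the 20 lowest in SC4 relative to MEF, without predicted genes and short RNAs. Above the white line Cyp2b23, Pcsk1 and Aspa are bright in SC4 and dark on nearly every other array, while Perp, Podxl and Ano1 are bright on the 8 reprogramming arrays too. Below it the genes are brightest in MEF and at or near the floor in SC4.

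Kallikreins lie in a cluster of related genes. Of 23 measured 5 (21.7%, beside 7.06% of all named genes) were at least 2-fold higher in SC4, 0 lower and 13 at the floor in both samples. Besides Klk1, Klk10 had 1338 in SC4 against 199.8 in MEF, Klk1b22 had 626 and Klk1b5 509, both against the floor, and Klk1b24 had 339.9 against 134. The 250 bases before the start of Klk1 and of the 3 Klk1b genes are shown because these neighbours were high together. They are RefSeq windows of GRCm38.p6: Klk1 (chr7:44225110-44225359, plus strand), Klk1b5 (chr7:44216224-44216473, plus strand), Klk1b22 (chr7:44112423-44112672, plus strand) and Klk1b24 (chr7:44187986-44188235, plus strand). They run 5′ to 3′, and capitals mark the longest run that all of them hold, of 12 bases.
Klk1: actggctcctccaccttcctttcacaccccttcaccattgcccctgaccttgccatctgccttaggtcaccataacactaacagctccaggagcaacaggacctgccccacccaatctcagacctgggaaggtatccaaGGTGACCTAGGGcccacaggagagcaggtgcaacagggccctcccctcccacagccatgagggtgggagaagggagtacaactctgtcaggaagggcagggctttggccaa
Klk1b5: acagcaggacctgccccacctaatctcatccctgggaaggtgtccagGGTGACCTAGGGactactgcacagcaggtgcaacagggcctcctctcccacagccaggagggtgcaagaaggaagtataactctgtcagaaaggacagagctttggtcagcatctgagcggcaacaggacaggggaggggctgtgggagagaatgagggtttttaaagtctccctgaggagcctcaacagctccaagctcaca
Klk1b22: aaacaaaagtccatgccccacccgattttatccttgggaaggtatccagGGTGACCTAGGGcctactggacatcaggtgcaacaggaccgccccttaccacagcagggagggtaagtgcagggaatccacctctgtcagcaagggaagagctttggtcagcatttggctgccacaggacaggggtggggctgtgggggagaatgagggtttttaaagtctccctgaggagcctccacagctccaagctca
Klk1b24: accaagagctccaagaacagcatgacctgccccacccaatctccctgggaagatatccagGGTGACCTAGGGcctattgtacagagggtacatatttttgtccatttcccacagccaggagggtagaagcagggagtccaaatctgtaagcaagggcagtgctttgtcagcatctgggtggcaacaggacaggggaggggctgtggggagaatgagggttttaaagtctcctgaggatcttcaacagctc
In global alignments of the full windows Klk1 was 45.5% to 50.5% identical to the 3 Klk1b windows, which were 72.2% to 82.2% identical to each other. The shared run lies further into the Klk1 window than into the others, so Klk1 is offset against them. Its lower identity thus includes unmatched ends and does not measure how far the matching stretches differ. Transcripts of such close relatives may share probes, so the Klk1b levels are uncertain as levels of single genes.

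The reprogramming factors and sorting markers gave mixed values. The zinc finger factor Klf4 had 5255 in SC4 against 704 in MEF (7.46-fold), with 3476 to 4134 on the reprogramming arrays and 834 in ESC. Myc, a driver of growth, was lower in SC4, at 219.8 against 468 (log2 -1.09), as was Klf2, at 136 against 294. Klf5 had 346 in SC4 and 440.4 in MEF. Pou5f1, which encodes Oct4, had 143 in SC4, 123 in ESC and 105 in MEF, so this probe set hardly separates stem cells from fibroblasts. On the reprogramming arrays, whose cells received constructs of all 4 factors, Pou5f1 had 107 to 142, Myc 165 to 387 and Sox2 the floor. Whether probe sets see the introduced copies was not tested, so these levels are not read as totals of a factor. Nt5e, the gene of CD73, had 3738 in SC4 against 495 in MEF (7.55-fold), beside 292 to 3658 on the reprogramming arrays. Itga4, the gene of CD49d, had 566 and 333 (1.7-fold).

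Part of the stem cell network was on in SC4. Of 44 pluripotency genes 20 (45.5%) were at least 2-fold higher in SC4 and 2 (4.55%) lower, beside 7.06% and 7.4% of all named genes. In both samples 13 were at the floor. The median log2 difference was 1.62 over the 31 above the floor and 0.27 over all measured. With the mean of all probe sets of a gene the first median was 1.09. After Nr0b1, Nr5a2 and Fgf4 came L1td1, which encodes an RNA-binding protein, with 1394 in SC4, 669 in ESC and the floor in MEF. Dppa2, Tet1, a methylcytosine oxidase, and E-cadherin (Cdh1) had 685, 578 and 929 in SC4, 2713, 2762 and 2962 in ESC, and the floor, 124 and 206 in MEF. These lay above MEF and below ESC. Dppa2 and Gdf3 (308 in SC4) were at the floor on the 8 reprogramming arrays. Tfcp2l1 (101 in SC4 and 1744 in ESC) and Lin28a (101 and 1248) were near the floor in SC4 and at it in MEF. Of 18 germ cell genes 0 were at least 2-fold higher, 0 lower and 16 at the floor in both samples.

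Epithelial genes differed in part. Of 37 junction and polarity genes 13 (35.1%) were at least 2-fold higher in SC4 and 2 (5.41%) lower, beside 7.06% and 7.4% of all named genes. The lower share was thus under that of all genes. The median was 0.69 over the 29 above the floor and 0.16 over all measured. The epithelial factor Ehf had 1250 in SC4 and was at the floor in ESC and MEF. Integrin alpha 6 (Itga6), a laminin receptor, had 1778 against 217. The desmosome genes Dsg2 and Pkp1 had 656 and 819 in SC4 against the floor and 137 in MEF. P-cadherin (Cdh3) was lower, at 155 against 2948, and so was the desmosomal Pkp2, at 179 against 403. Of 13 keratins 0 were 2-fold higher and 0 lower, and Krt17, which reached 2181 on a reprogramming array, had 141 in SC4 and the floor in MEF. In the list of 19 cornified envelope and keratinocyte genes, which does not hold Sprr2b, Perp alone passed 2-fold.

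Cell division genes were higher in SC4 as a block. S phase needs the Mcm2 to Mcm7 helicase and its loaders to copy DNA, and mitosis needs kinases, kinesins and spindle checkpoint proteins. Of 36 S phase genes 34 (94.4%) were at least 2-fold higher in SC4 and 0 lower, with a median of 1.84. Of 42 G2 and M phase genes 38 (90.5%) were higher and 0 lower, with a median of 2.00. The helicase loader Cdc6 had 991 in SC4 against the floor in MEF (at least 9.91-fold), DNA ligase 1 (Lig1) 1218 against 142 and the licensing factor Cdt1 1844 against 246. Of the mitotic genes the checkpoint kinase Bub1b had 1316 against 148 and the spindle protein Nusap1 2393 against 282. Levels near those of SC4 were measured on the other arrays: Cdc6 had 589 to 874 on the reprogramming arrays and 1152 in ESC, and Bub1b 692 to 1198 and 1981.

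Windows before S phase genes are shown because this list differed as a block and its known regulators, the E2F factors, have a defined motif. It was searched as TTTCCCGC or TTTGGCGC on both strands in the 250 bases before the start of 27025 RefSeq genes of GRCm38.p6. It stood before 7 of 32 S phase genes with a window (21.9%), against 1.35% of all genes. Shown are Cdc6 (chr11:98907901-98908150, plus strand), Mcm6 (chr1:128359706-128359955, minus strand) and Hells (chr19:38930740-38930989, plus strand), 5′ to 3′, with the motif in capitals.
Cdc6: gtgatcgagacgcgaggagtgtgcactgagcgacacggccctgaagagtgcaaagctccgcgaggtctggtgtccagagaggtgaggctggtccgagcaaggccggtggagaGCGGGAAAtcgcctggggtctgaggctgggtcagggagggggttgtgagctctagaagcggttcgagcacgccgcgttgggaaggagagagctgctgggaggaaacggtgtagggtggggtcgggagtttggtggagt
Mcm6: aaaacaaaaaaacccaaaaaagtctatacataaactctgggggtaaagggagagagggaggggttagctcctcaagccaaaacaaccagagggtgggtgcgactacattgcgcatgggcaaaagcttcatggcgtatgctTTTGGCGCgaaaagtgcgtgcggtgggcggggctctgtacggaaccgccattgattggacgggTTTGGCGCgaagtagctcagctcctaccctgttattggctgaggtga
Hells: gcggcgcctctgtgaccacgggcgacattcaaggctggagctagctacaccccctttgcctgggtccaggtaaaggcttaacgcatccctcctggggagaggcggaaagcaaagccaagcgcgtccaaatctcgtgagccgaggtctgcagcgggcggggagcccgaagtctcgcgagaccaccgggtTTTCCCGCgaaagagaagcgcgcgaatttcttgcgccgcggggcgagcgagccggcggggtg
The helicase subunit Mcm6 had 2016 in SC4 against 341 in MEF, and the chromatin helicase Hells 918 against 123. The letters TTTGAA of the cell cycle element CHR, searched likewise, stood before 13 of 36 G2 and M phase genes (36.1%), against 16.3% of all genes. A match describes the letters and is not a bound site.

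Of 27 p53 and cell cycle inhibitor genes 2 (7.41%) were at least 2-fold higher in SC4 and 6 (22.2%) lower, beside 11.8% and 12.4% of all genes above the floor, with a median of -0.34. Cdkn1a, which encodes p21, had 6746 in SC4 and 7552 in MEF, and Cdkn2a 522 and 732. The inhibitor Cdkn2b and the stress gene Gadd45g were lower, at 357 and 134 against 1209.9 and 934. The higher genes were Perp and the retinoblastoma gene Rb1, at 2362 against 889. Rb1 had a log2 difference of 1.41, and of 0.70 as the mean of its probe sets, under 2-fold.

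Of 37 DNA methylation and histone modifying enzymes 18 (48.6%) were at least 2-fold higher in SC4 and 0 lower, beside 7.06% and 7.4% of all named genes. The median was 1.01 over the 36 above the floor. Uhrf1, which brings the maintenance methyltransferase to newly copied DNA and is also in the S phase list, had 1840.1 in SC4 against 277 in MEF. That methyltransferase, Dnmt1, had 3161 against 794. The remodeller Chd7 had 607 against the floor, Wdr5, a subunit of histone H3 methyltransferases, 1672 against 310.1, and the Polycomb partner Jarid2 1921 against 366. The de novo methyltransferase Dnmt3b had 232 in SC4, 1402 in ESC and the floor in MEF.

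Extracellular matrix genes were among the 20 lowest of SC4, beside Acta2, Crabp1, tissue factor, Thy1, Pdgfrb and Mest. Of 27 matricellular, fibulin and lysyl oxidase genes 23 (85.2%) were at least 2-fold lower in SC4 and 0 higher, with a median of -3.52. Thrombospondin 1 (Thbs1), an adhesive glycoprotein that can activate TGF-beta, was at the floor in SC4 against 10588 in MEF (at least 106-fold lower), with 529 to 5313 on the reprogramming arrays. Also at the floor in SC4 were periostin (Postn, 8567 in MEF), the collagen cross-linking enzyme Lox (8431), Thbs2 (7562) and tenascin C (Tnc, 7089.6). Loxl1 had 106 against 5538. For each of the first 5 genes MEF was the highest of the 11 arrays, a rank favoured by naming the genes furthest above SC4 in MEF. Fibronectin, Ccn2 (1891 and 3029), Efemp1 (1932 and 2217) and Loxl4 (319 and 367) were within 2-fold.

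Small leucine-rich proteoglycans bind collagen fibrils and set their spacing. Of 13 measured 8 were at least 8-fold lower in SC4, beside 1.31% of all named genes, and 5 were at the floor in both samples. The median was -5.31 over the 8 above the floor, -4.02 over all measured and -4.31 with the floor raised to 200. Decorin (Dcn) was at the floor in SC4 against 6584 in MEF (at least 65.8-fold lower), and biglycan (Bgn) had 184 against 11809 (64.3-fold lower). Asporin (Aspn) and osteoglycin (Ogn) were at the floor in SC4 against 6094 and 5832 in MEF. The reprogramming arrays had 1231 to 3005 of Dcn and 1443 to 7622 of Bgn, each above SC4 and below MEF.

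Of 24 collagen chains 16 (66.7%) were at least 2-fold lower in SC4 and 0 higher, beside 7.4% and 7.06% of all named genes. The median was -2.23 over the 23 above the floor and -2.16 over all measured. Col12a1, of a fibril-associated collagen, was at the floor in SC4 against 6289.8 in MEF. The type I chains Col1a2 and Col1a1 had 214 and 344 against 5618 and 6664, and Col8a1 and Col6a3 had 102 and 101 against 2604 and 2035. The basement membrane chains Col4a1 and Col4a2 had 235 and 179 against 1004 and 837.

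Of 31 proteases, which include enzymes that cut the matrix, and serpins 23 (74.2%) were at least 2-fold lower in SC4, beside 7.4% of all named genes. Serpinb9b alone was higher (2195 against 591, log2 1.89, and 0.95 as the mean of its probe sets, under 2-fold). The metalloproteinase inhibitor Timp2 was at the floor against 6359 (at least 63.6-fold lower), and the gelatinase Mmp2 had 254 against 7774. The collagenase Mmp13 and the aggrecan-cleaving Adamts5 were at the floor in SC4 against 3454 and 2944. The 20 lowest genes also held Crabp1, which binds retinoic acid (108 against 6887), the matrix protein Ccdc80 (the floor against 5645), tissue factor (F3, the floor against 5129) and the IGF-binding Igfbp7 (159 against 7523).

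Of 21 smooth muscle genes 13 (61.9%) were at least 2-fold lower in SC4 and 0 higher, beside 12.4% and 11.8% of all genes above the floor. The median was -1.81. Smooth muscle actin (Acta2), a mark of activated fibroblasts, was at the floor in SC4 against 10221 in MEF (at least 102-fold lower), with 449.5 to 7354 on the reprogramming arrays. The actin-binding transgelin (Tagln) had 181 against 4039 and calponin 1 (Cnn1) 113 against 1699. Srf, a factor that drives contractile genes, had 858 in SC4 and 851 in MEF.

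The CArG box, the motif that Srf binds, was searched in the same windows on both strands. It stood before 4 of 17 smooth muscle genes with a window (23.5%), namely Cnn2, Myl9, Acta1 and Srf, against 1.4% of all genes. Of these Srf was within 2-fold between SC4 and MEF. Acta2, Tagln and Cnn1 were not among the 4, and Tagln had no window. A tie between the box and a lower level was not tested. The windows of Myl9 and Cnn2, which were lower in SC4, are shown: Myl9 (chr2:156775214-156775463, plus strand) and Cnn2 (chr10:79988350-79988599, plus strand), 5′ to 3′, with the box in capitals.
Myl9: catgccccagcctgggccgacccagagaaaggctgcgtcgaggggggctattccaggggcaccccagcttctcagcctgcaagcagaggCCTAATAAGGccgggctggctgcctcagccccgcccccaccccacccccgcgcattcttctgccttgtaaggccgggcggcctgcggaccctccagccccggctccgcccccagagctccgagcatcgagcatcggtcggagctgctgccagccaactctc
Cnn2: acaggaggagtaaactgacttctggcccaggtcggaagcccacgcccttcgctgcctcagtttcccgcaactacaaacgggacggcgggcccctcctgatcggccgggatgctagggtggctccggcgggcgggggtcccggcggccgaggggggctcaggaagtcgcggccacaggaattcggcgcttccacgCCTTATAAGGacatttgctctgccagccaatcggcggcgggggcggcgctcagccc
The myosin light chain Myl9 had 287 in SC4 against 3886 in MEF, and Cnn2, a calponin, 440 against 4774.

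**Figure D3:**
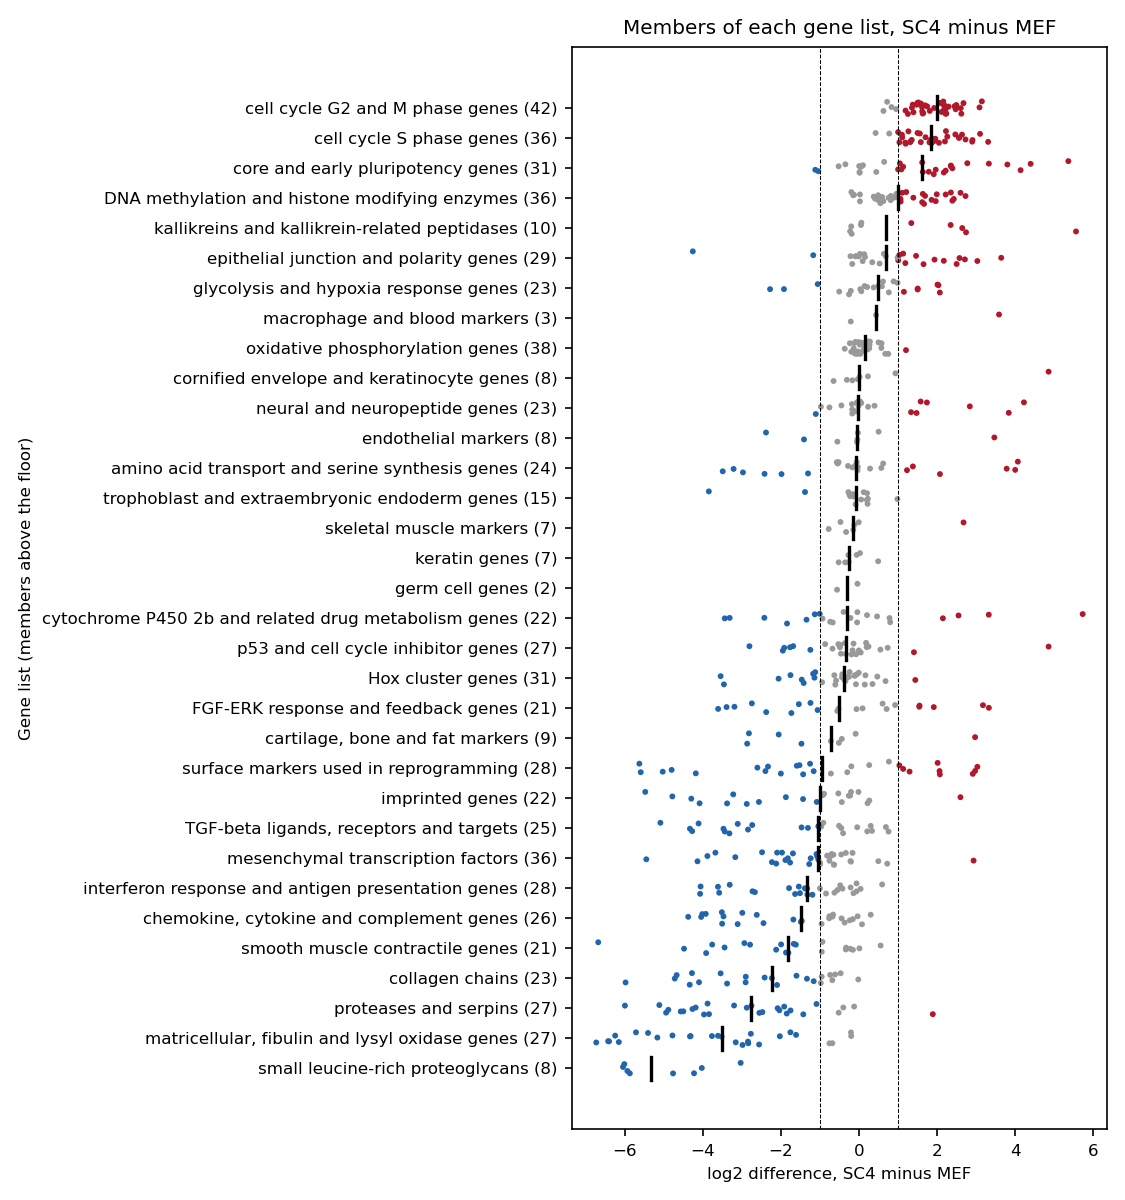
Log2 difference, SC4 minus MEF, of each list member above the floor (points; red at least 2-fold higher and blue at least 2-fold lower in SC4), 1 row per gene list, with a black bar at the median and dashed lines at 2-fold. Of the lists drawn, which leave out the markers of the comparison, the reprogramming factors and the sex-linked genes, G2 and M phase genes lie highest, with a median of 2.00, and small leucine-rich proteoglycans lowest, with a median of -5.31.

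Both signalling lists held more lower than higher genes in SC4. Of 26 TGF-beta and BMP genes 14 (53.8%) were at least 2-fold lower and 0 higher, beside 7.4% and 7.06% of all named genes. Their median was -1.04 over the 25 above the floor. The ligands Tgfb3 and Bmp4 had 148 and 111 in SC4 against 5019.8 and 1911 in MEF, the receptor Tgfbr2 282 against 1876 and the target Tgfbi 138 against 2659.8. The BMP antagonist Grem1 was at the floor against 2007. Of 21 FGF-ERK genes 5 (23.8%) were higher and 9 (42.9%) lower, beside 11.8% and 12.4% of all genes above the floor, with a median of -0.52. The ETS factors Etv5, Etv1 and Etv4, which FGF signals induce, had 2561, 956 and 601 in SC4 against 255, 106 and 159 in MEF. Etv5 and Etv1 had log2 differences of 3.33 and 3.18, and of 1.98 and 1.94 as the mean of their probe sets. The ligand Fgf7 and the receptor Fgfr2 were at the floor against 1217 and 911. Feedback inhibitors differed in direction: Spry4 had 2564 against 874, and Spry1 179.7 against 1883.

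Of 37 mesenchymal transcription factors 19 (51.4%) were at least 2-fold lower in SC4, beside 7.4% of all named genes, and Foxd1 alone was higher (1018 against 133). The median was -1.05 over the 36 above the floor. The zinc finger factor Osr1 was at the floor in SC4 against 4354 in MEF. The homeobox factor Prrx1 had 293 in SC4, 1814 to 3953 on the reprogramming arrays and 5138 in MEF. Snai2, which represses epithelial genes, had 256, 710.2 to 1698 and 3769 in the same order. Tbx15 had 1473 and 2301 and was within 2-fold. Of 36 Hox genes, which record position along the body, 9 (25%) were lower and 1 (2.78%) higher, beside 7.4% and 7.06% of all named genes. In both samples 5 were at the floor. Hoxc6 was at the floor against 1164 and Hoxc8 had 146 against 1601, while Hoxd13 had 710.3 and 959.6, with 115 in ESC.

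Surface markers went both ways, with 9 of 30 (30%) at least 2-fold higher in SC4 and 14 (46.7%) lower, beside 7.06% and 7.4% of all named genes. The fibroblast marker Thy1, the PDGF receptors Pdgfrb and Pdgfra, and podoplanin (Pdpn) were at the floor in SC4 against 4926, 4806, 2775 and 3253 in MEF. Alkaline phosphatase (Alpl), used as an early reprogramming mark, had 786 against the floor, and Cd24a had 4783 against 1144.

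Of 34 interferon response and antigen presentation genes 16 (47.1%) were at least 2-fold lower and 0 higher, beside 7.4% and 7.06% of all named genes. The median was -1.32 over the 28 above the floor and -0.92 over all measured. The interferon-induced Ifi27, Usp18, Oasl2 and Ifit1 were at the floor in SC4 against 1674, 1662, 1220.1 and 1194 in MEF. B2m, the light chain of class I antigen presentation, had 4665 against 11639.7, and its heavy chain partner H2-K1 834 and 871. Of 33 chemokine, cytokine and complement genes 14 (42.4%) were lower and 0 higher, beside the same shares of all named genes. The chemokines Cxcl12, Ccl2 and Ccl7 had 190.1, 119 and 180.5 against 3934, 1953 and 2909, and the macrophage growth factor Csf1 151 against 2292.

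Imprinted genes are read from 1 parental copy. Of 26 measured 11 (42.3%, beside 7.4% of all named genes) were at least 2-fold lower in SC4. Zdbf2 alone was higher (1466 against 242), and 4 were at the floor in both samples. Mest was at the floor in SC4, had 1171 to 1738 on the reprogramming arrays and 3119 in ESC, and had 4435 in MEF. The growth-restraining adaptor Grb10 had 134, 2219.9 to 2762, 2053 and 3666 in the same order. Igf2r, the receptor that clears Igf2, had 215 in SC4 against 3629 in MEF. For Mest, Grb10 and Igf2r SC4 was the lowest of the 11 arrays, a rank favoured by naming the genes furthest below MEF in SC4. The noncoding RNA Rian was at the floor against 1959.6, and Peg3 had 3730.2 and 4290.4.

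Of 38 oxidative phosphorylation genes 1 was 2-fold higher and 0 lower, and the median of 0.14 became -0.005 when each array was centred. Of 23 glycolysis and hypoxia genes 6 (26.1%) were higher and 3 (13%) lower, beside 11.8% and 12.4% of all genes above the floor. The lower share was thus near that of all genes. Hexokinase 2 (Hk2) had 790.4 in SC4 against 196 in MEF, and the angiogenic factor Vegfa 274 against 1328. Of 24 amino acid genes 6 (25%) were higher and 6 (25%) lower, beside the same 11.8% and 12.4%. Shmt1, which interconverts serine and glycine, had 1524 against 111. The transporter Slc38a4 was at the floor in SC4, had 1819.8 to 3457 on the reprogramming arrays and 4714 in ESC, and had 1121 in MEF. Of 30 cytochrome P450 and related genes 4 (13.3%) were higher and 7 (23.3%) lower, beside 7.06% and 7.4% of all named genes. Gsta3, a glutathione transferase, had 444 in SC4 and was at the floor on the other 10 arrays, and Cyp1b1 was at the floor against 1082.

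Markers of other cell types were counted the same way, beside 7.06% higher and 7.4% lower of all named genes. Of 11 macrophage and blood markers 8 were at the floor in both samples, with sums of 2586 in SC4 and 1372 in MEF, and Laptm5 alone passed 2-fold (1203 against the floor). Of 13 endothelial markers 1 was higher, the angiopoietin receptor Tek (1299 against 117), and 2 lower, with sums of 2661 and 2156. Of 15 skeletal muscle markers Pax7, a progenitor factor, alone passed 2-fold (640.5 against the floor), with sums of 2174 and 1846. Cartilage, bone and fat markers were 1 higher and 4 lower of 16, and trophoblast and endoderm genes 0 and 2 of 26. Of 29 neural genes 7 were higher and 1 lower, led after Stmn2 by Penk, the enkephalin precursor (2992 against 209). The part of such cells in the results was not tested.

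Genes were grouped by chromosome after the values were seen, for genes with a mean intensity of at least 300. The median log2 difference, SC4 minus MEF, ran from 0.08 to 0.22 on 18 chromosomes. On chromosome 14 it was -0.36 over 275 genes, of which 66.2% were lower in SC4, and on chromosome 12 it was 0.34 over 290 genes. Against the mean of the 8 reprogramming arrays SC4 had -0.58 on chromosome 14, where 88.7% of genes were lower, 0.15 on chromosome 12 and -0.05 to 0.03 on the 18 others. ESC minus MEF gave 0.05 on chromosome 14 and 0.02 on chromosome 12. The differences share the SC4 or the MEF array and carry no test.

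**Figure D4:**
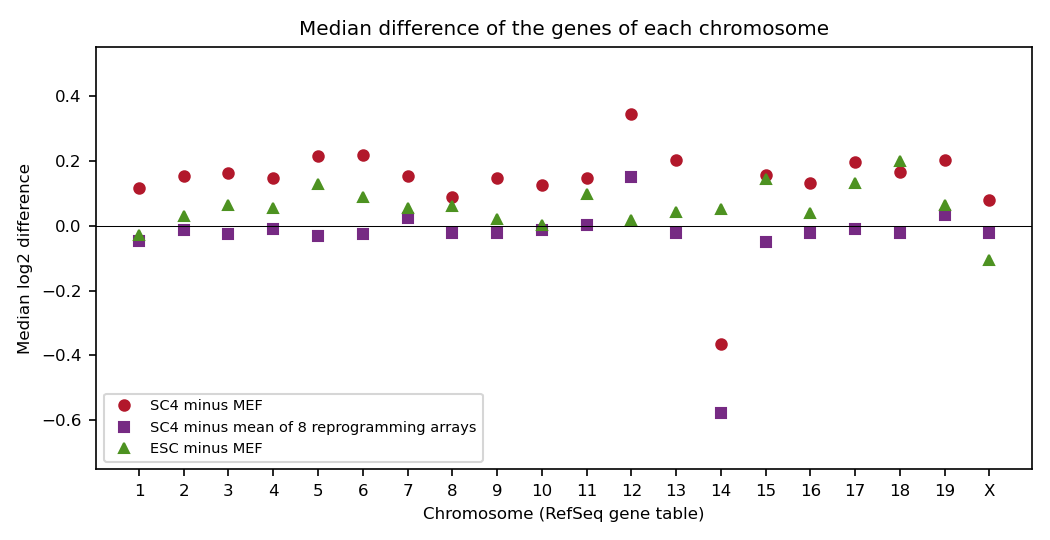
Median log2 difference of the genes of each chromosome with a mean intensity of at least 300, for SC4 minus MEF, SC4 minus the mean of the 8 reprogramming arrays and ESC minus MEF. Chromosome 14 lies at -0.36 and -0.58 for the SC4 differences, below the other chromosomes, and chromosome 12 at 0.34 and 0.15, above them.

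The first 25 genes of chromosome 14 had a median of 0.08 against MEF and -0.07 against the reprogramming mean. The 10 groups of 25 genes after them ran from -0.82 to -0.23 against MEF and from -0.81 to -0.41 against the reprogramming mean. On chromosome 12 the first 3 groups had -0.08 to 0.02 against the reprogramming mean, and the 9 after them 0.13 to 0.41. Against MEF the first 3 had 0.33, -0.025 and 0.20, and the 9 after them 0.21 to 0.80. There the first group thus lay among the later ones. Of 446 chromosome 14 genes above the floor 94 (21.1%) were at least 2-fold lower in SC4 and 32 (7.17%) higher, beside 12.4% and 11.8% of all such genes. Bmp4, Klf5 and Rb1, given above, lie on chromosome 14. DNA copy number was not measured, and its part in these medians was not tested.

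**Figure D5:**
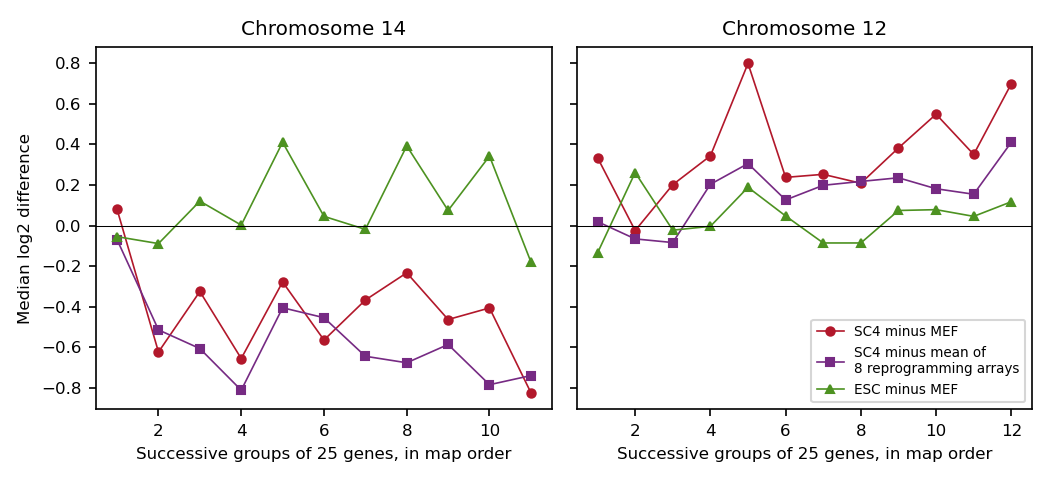
Median log2 difference of successive groups of 25 genes in map order along chromosomes 14 and 12 (the last group of chromosome 12 holds 15), for SC4 minus MEF, SC4 minus the mean of the 8 reprogramming arrays and ESC minus MEF. On chromosome 14 both SC4 differences lie below 0 after the first group, and on chromosome 12 the difference from the reprogramming mean lies above 0 after the first 3 groups.

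The genes that set SC4 apart were read in sorted reprogramming cells, since CD73+ minus CD73- shares no array with SC4 minus MEF. Of the 13242 genes 183 (1.38%) were at least 2-fold higher in CD73+ than in CD73- cells at both days, and 83 (0.627%) lower. The 104 genes at least 8-fold higher in SC4 shared 31 with the 183, which is 29.81% of the 104 and 16.94% of the 183, and 0 with the 83. The 290 genes at least 8-fold lower in SC4 shared 44 with the 83, which is 15.17% of the 290 and 53.01% of the 83, and 1 with the 183. Klk1 had 434 and 2490.3 in CD73+ cells at days 6 and 9 and was at the floor in CD73- cells at both. Acta2 had 463 in CD73+ and 2264 in CD73- cells at day 6, and 449.5 and 2784 at day 9. Nt5e, on whose product those cells were sorted, was itself high in SC4.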

How the data were processed

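Total RNA of 11 samples was measured on 1 whole-transcript array each. The authors deposited 1 table of linear intensities for 41345 probe sets. The submitters' processing notes name Partek, with no version. How signals were summarised, corrected for background and scaled was not stated in those notes or the labels. No value lies below 100. The number of arrays limits the precision, and with 1 array a group there is no replicate error.

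Log2 of the deposited intensities was taken with no further scaling (Python 3.11.15, numpy 2.4.6, pandas 2.3.3). Names came from GEO's platform annotation, updated by gene identifier through a RefSeq table of GRCm38.p6, and 23521 probe sets had 1 symbol, 1814 several and 16010 none. Only the first kind was used, and a gene with several probe sets took the one of highest mean. Genes above the floor in SC4 or MEF were counted at 2-fold and 8-fold. Promoter windows were those listed first for each gene. The counting was tested on simulated data.

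The comparison, members and lists were chosen with earlier results of these data known. The naming rule took the 20 highest and 20 lowest differences without predicted genes and short RNAs, up to 4 members of each list in each direction past 2-fold, the reprogramming factors and the sorting markers. Other genes given here were chosen after their values were seen. Alternatives were quantile normalization, centring, the mean of all probe sets, a floor of 200 and other gene filters.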

Additional observations from a re-analysis of the deposited data

Results flagged for a closer look

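Signal also appeared in probe sets that the counts of named genes leave out. Of 16010 probe sets with no symbol 12 were at least 8-fold higher in SC4 than in MEF, the largest by 37.3-fold, and 25 were at least 8-fold lower. Of 1814 probe sets with several symbols 18 were at least 8-fold higher, the largest by 23.1-fold, and 9 were lower. No group has the number of arrays that a check for an outlying array needs.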

How the results depend on the processing

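The counts at 8-fold depended on the floor. They were 104 genes higher and 290 lower in SC4 as deposited, 52 and 188 with the floor raised to 200, and 68 and 164 over genes above the floor in both samples, since a higher floor, or leaving out genes at it, shortens the folds that can be seen. Under the other alternatives these counts, and the counts at 2-fold under each alternative run, stayed within 1.5 times. At 2-fold the alternatives gave 1272 to 1535 genes higher and 1232 to 1950 lower. Without chromosome 14, chosen after seeing the data, 1535 and 1547 remained at 2-fold. Centring each array moved the median of the genes used from 0.02 to -0.13, and quantile normalization to -0.04. None of 162 named genes changed to a called difference of the opposite sign under the 4 alternatives tried. Most of them were named for large differences, so such a change was unlikely from the start and its absence is no check of them. With the floor at 200, 105 of them moved, and of 159 at least 2-fold different 8 no longer were: Klf2, Hoxa2, Hoxa13, Ndufb8, Cyp39a1, Gata6, Ecscr and Pparg. With the mean of all probe sets 12 moved and 3 of the 159 fell under 2-fold: Rb1, Pdk1 and Serpinb9b. Bgn, Ccdc80, Dsg2, Col1a2, Alpl and Lpl then had log2 differences of -4.82, -4.49, 1.36, -3.99, 2.02 and -1.44. Of 36 list medians 16 moved with the floor at 200, 15 over all measured genes and 2 with the mean of all probe sets. Of 1082 genes with several probe sets 243 had 1 or more 2-fold different, in 31 of these all were so in the same direction, and 0 had probe sets 2-fold different in opposite directions. Intensity at the floor hides how far below it a gene lay. No paired analysis was possible because each group has 1 array.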
